A study of Homo sapiens with 47 samples.

Results

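Olfactory receptor genes were examined in the chromatin of vemurafenib-resistant, parental and engineered melanoma cells. The members were all listed features that overlapped 4 stretches of hg19 where these genes stand side by side: 247.60 to 248.85 Mb of chromosome 1, and 4.35 to 6.25 Mb, 55 to 56.60 Mb and 123.60 to 124.45 Mb of chromosome 11. They are called here the chromosome 1 cluster and the first, second and last chromosome 11 clusters. The beta-globin genes, at 5.24 to 5.32 Mb inside the first chromosome 11 cluster, were left out, which left 5.52 Mb. The windows held 1967 of the 2305813 listed features: 400 of 478961 H3K9me3 islands over 8 libraries, 77 of 170372 H3K27ac peaks over 4 libraries, 1486 of 1654632 ATAC-seq peaks over 20 libraries, and 4 of the 1848 intervals of a table that the authors call RRR.

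Both cell lines, 451Lu and WM983B, are human melanoma lines that carry a BRAF mutation. The resistant cells of each line were derived as resistant to vemurafenib, a BRAF inhibitor, and are set against the parental cells of the same line; whether drug was in the medium at harvest is not given in the labels. Other 451Lu cells over-expressed c-JUN and c-FOS, components of the AP-1 transcription factor (AP1, against vector), carried a short hairpin RNA against p150 (shp150, against the NT control), or carried both changes (shp150_AP1, against vector_NT); the labels give p150 no other name. The labels do not say that these cells were resistant or parental, and do not describe clones or vectors. Each group had 2 libraries of an assay, except that H3K27ac peaks of 1 library a group were analysed here. ATAC-seq covered all 10 groups, H3K27ac ChIP-seq the resistant and parental cells of both lines, and H3K9me3 ChIP-seq the resistant, parental, shp150_AP1 and vector_NT groups of 451Lu. Nothing in the labels says that replicates were separate cultures, so p-values measure the spread between libraries, which may be technical.

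Olfactory receptors are G-protein-coupled receptors that detect odorants. An olfactory sensory neuron transcribes 1 allele of 1 receptor gene, and the other receptor genes are packed in heterochromatin that carries H3K9me3, the trimethylated lysine of histone H3 that marks silent chromatin. In other cell types the genes are silent as a rule. RefSeq lists 392 protein-coding human receptor genes and 480 pseudogenes; 61 of the coding genes are on chromosome 1 and 171 on chromosome 11, the chromosome with the families of class I, the receptors first described in fish, which count 55 genes there. Of the coding genes on chromosome 1, 33 belong to family 2. No annotation of the hg19 build was used, so single features are given by position and not by gene. A feature in a window is therefore not shown to lie at a receptor gene, since the windows may hold other genes. Marker genes of the cell type could not be checked.

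Receptor promoters differ from most promoters in base composition. In the RefSeq promoter set of 300 bases a gene (250 before and 50 after the start, build GRCh38.p14), the 329 receptor promoters had a median of 1 CG pairs, against 14.0 over all 35116 promoters. Shares of 77.2% and 18.2% had 2 or fewer. The pattern TGANTCA, an AP-1 motif written with any base at its centre, was found in 10.6% of receptor promoters and in 7.71% of all promoters. It reads the same on both strands. The median GC content was 37.7% in receptor promoters and 58.7% in all promoters. The part of base composition in the motif shares was not tested. The 250 bases before the start are shown for the nearest receptor genes with an entry on either side of the globin genes as examples of this composition. Both are read 5′ to 3′ from the minus strand of GRCh38.p14, at chr11:5200683-5200932 and chr11:5548541-5548790, with CG pairs in capitals.
OR51V1: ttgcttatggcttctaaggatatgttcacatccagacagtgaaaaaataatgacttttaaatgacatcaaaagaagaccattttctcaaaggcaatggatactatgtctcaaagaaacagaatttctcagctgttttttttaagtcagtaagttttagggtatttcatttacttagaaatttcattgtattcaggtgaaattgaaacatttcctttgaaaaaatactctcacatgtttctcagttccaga
OR52H1: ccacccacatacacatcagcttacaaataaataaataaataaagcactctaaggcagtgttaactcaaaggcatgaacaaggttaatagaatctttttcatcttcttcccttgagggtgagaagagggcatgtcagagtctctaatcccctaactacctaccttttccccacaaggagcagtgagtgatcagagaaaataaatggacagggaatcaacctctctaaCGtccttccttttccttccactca
OR51V1, on the side of HBB, had 0 CG pairs in this stretch, and OR52H1, on the side of HBE1, had 1.

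H3K9me3 islands covered less of the receptor windows than of the rest of the genome. An island is a stretch where the authors' program SICER found ChIP reads in excess of input reads; each is listed with both counts and their scaled ratio, the fold. Islands covered 3.18% ± 0.513 of the windows, against 10.6% ± 1.58 of the rest (SD, n = 8 libraries). The windows were lower in 8 of 8 libraries, by a mean of 7.46 percentage points (exact sign-flip permutation test over libraries, two-sided, p = 0.00781, adjusted p = 0.00938 over 12 such tests). This p is the smallest that 8 libraries allow. The islands that were listed there had a higher fold: the median island fold of a library averaged 2.92 ± 0.257 in the windows and 2.04 ± 0.193 in the rest (SD, n = 8), higher in 8 of 8 libraries (exact sign-flip permutation test, adjusted p = 0.00938). Their median length averaged 3.49 ± 0.937 kb, against 3.90 ± 0.641 kb elsewhere, and was shorter in 7 of 8 libraries (exact sign-flip permutation test, adjusted p = 0.0312). Input reads within islands were sparser too. Depending on the library, the median island of the chromosome 1 cluster had 0.573 to 0.691 times the input reads per kb of islands in the rest of the genome, and that of the second chromosome 11 cluster 0.572 to 0.724 times. The part of input density in these differences was not tested.

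The 4 clusters were unequal. Over the 8 libraries, islands covered 4.10 to 9.95% of the chromosome 1 cluster (median 6.38%) and 3.01 to 5.72% of the second chromosome 11 cluster (median 3.86%). They covered 0 to 2.44% of the first chromosome 11 cluster (median 1.48%) and 0 to 1.69% of the last (median 0.776%). The 3 chromosome 11 clusters were below the rest of the genome in 8 of 8 libraries, and the chromosome 1 cluster in 7 of 8, the exception being resistant 2 (exact sign-flip permutation test, adjusted p = 0.00938 for each chromosome 11 cluster and 0.0170 for chromosome 1). In the first chromosome 11 cluster no library listed an island from 5044001 to 5761400, a stretch of 717 kb that includes the globin genes. In the last one the longest such stretch was 249 kb.

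The union of the islands of 8 libraries gave 132 regions in the windows. Of these, 10 (7.58%) were listed in all 8 libraries, against 20.1% of 84641 regions genome-wide, and 57 (43.2%) in 1 library, against 25.5%. The 10 constant regions were 5 in the chromosome 1 cluster and 5 in the second chromosome 11 cluster. The one with the most ChIP reads on average lies at chr1:248473001-248486800 (13800 bp), with 231 and 417 reads in resistant, 269 and 289 in parental, 232 and 193 in shp150_AP1, and 445 and 397 in vector_NT libraries. The vector_NT libraries, which held the most ChIP reads in listed islands, were above every other library there except resistant 2. The resistant values spanned the parental ones. Within the second chromosome 11 cluster, chr11:55917801-55926000 had 159 and 194 reads in resistant, 209 and 263 in parental, 107 and 248 in shp150_AP1, and 331 and 264 in vector_NT libraries. The single islands with the most reads were at chr1:248168601-248176000 in vector_NT 1 (486 ChIP and 114 input reads, fold 3.37), chr11:5949601-5960000 in vector_NT 2 (464 and 133, fold 4.15), chr11:55260801-55265800 in vector_NT 1 (381 and 54, fold 5.59) and chr11:123595801-123601600 in shp150_AP1 1 (194 and 120, fold 2.81). The last one straddles the edge of its window, and no input library is labelled for shp150_AP1 1, so the input behind its counts and folds is not given in the labels.

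Resistant 451Lu cells had more H3K9me3 island in the chromosome 1 cluster than parental cells, while islands covered less of the rest of the genome. Islands covered 7.52 and 9.95% of the chromosome 1 cluster in resistant libraries, against 4.46 and 4.58% in parental libraries. The resistant libraries were both above the parental ones; the difference of the means was 4.22 percentage points. In the rest of the genome the order was the opposite, with 9.50 and 8.82% in resistant libraries and 10.8 and 11.1% in parental libraries. In the first chromosome 11 cluster islands covered 0 and 0.451% in resistant libraries, against 1.16 and 1.91% in parental libraries, and in the last one 0 and 0.212%, against 0.541 and 1.44%. Both were lower in both resistant libraries. The second chromosome 11 cluster overlapped between the groups, with 3.83 and 3.01% in resistant libraries and 3.84 and 3.6% in parental libraries. An exact permutation test of 2 libraries against 2 cannot give p below 0.333, the value of each comparison above in which the groups stood apart (two-sided; adjusted p = 0.576 over 19 comparisons). Listed islands held 14820360 and 13222196 ChIP reads in resistant libraries, against 15722441 and 18296612 in parental libraries, and the median island fold in the windows was 2.46 and 2.72, against 3.14 and 3.22; their part in the differences was not tested.

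**Figure D1:**
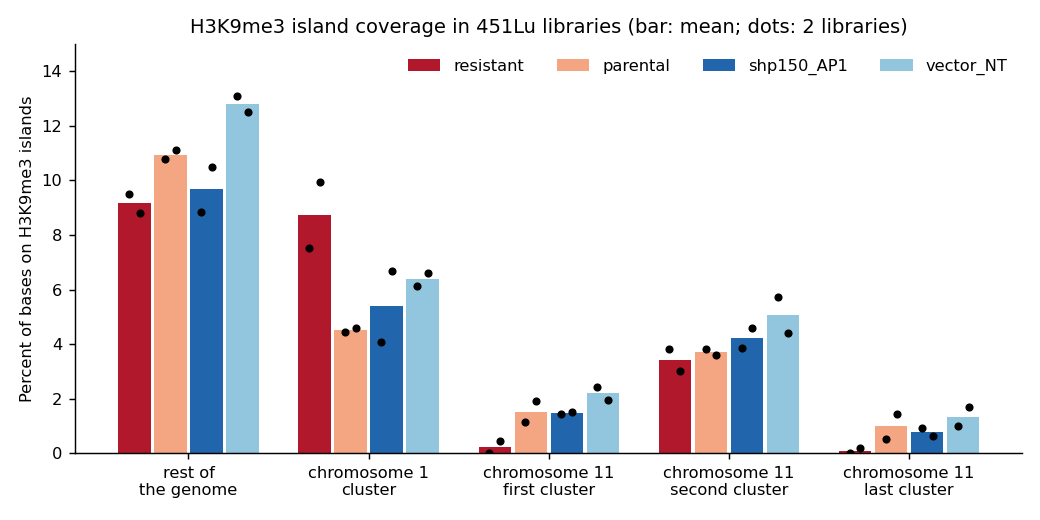
Percent of bases on H3K9me3 islands (vertical axis) in the rest of the genome and in each receptor cluster, for the 4 groups of 451Lu libraries; bars are means and dots the 2 libraries of a group. The resistant libraries, at 7.52 and 9.95%, are above the parental libraries, at 4.46 and 4.58%, in the chromosome 1 cluster and below them in the rest of the genome and in the first and last chromosome 11 clusters.

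To compare read numbers, the ChIP reads of islands were summed in 100-kb bins of the genome and tested with edgeR's quasi-likelihood test over all 22581 bins with enough reads, in 8 libraries, with Benjamini-Hochberg adjustment; 39 of the 54 window bins could be tested. Levels are given as CPM, the reads of a bin scaled to a common total of island reads per library after TMM scaling. A bin at 0 lists no island, which is not the same as no reads, since the smallest island listed in a library held 24 to 49 ChIP reads; no fold is given against such a group. Between resistant and parental cells, 2 window bins were higher (8.44% of all bins tested were called higher) and 3 lower (14.7% of all bins) at an adjusted p under 0.05. Both shares of the 39 bins are below the genome-wide ones. These counts depended on the test. DESeq2 called 7 higher (14.4% of all bins) and 6 lower (25.8%). With the replicate number as a block, edgeR called 2 higher (6.52%) and 0 lower (8.77%). The ratio of ChIP to input reads called 0 and 0, and 0% of all bins in either direction. That fit kept only bins with island reads in all 8 libraries, so bins at 0 in a group could not be called. It took both reads within listed islands, so it does not register a gain or loss of island length.

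The chromosome 1 bin at 248.20 to 248.30 Mb was the highest of its cluster. It had 90.8 and 72.0 CPM in resistant libraries, against 20.2 and 10.6 CPM in parental libraries. The groups did not overlap, and the log2 fold change was 2.41 (SE 0.41, edgeR adjusted p = 0.0135). Without parental 2 the adjusted p was 0.0553. The ratio of ChIP to input reads within the islands of this bin had a log2 fold change of -0.01 (limma adjusted p = 0.958). Both reads were counted in listed islands alone, so this ratio does not register a gain in island length. Input reads counted in these islands were 717 and 434 in resistant libraries, against 141 and 83 in parental libraries. Over the cluster, the median island had 0.573 and 0.580 times the input reads per kb of the rest in resistant libraries. In parental libraries it had 0.579 and 0.651 times. The part of input reads in the higher ChIP sum was not tested. The neighbouring bin at 248.30 to 248.40 Mb, picked after its values were seen, listed no island in either parental library and 653 and 534 ChIP reads in resistant libraries, but was not called (edgeR adjusted p = 0.0700).

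Summed over the whole chromosome 1 cluster, islands held 257 and 382 CPM in resistant libraries, against 130 and 126 CPM in parental libraries. The sum was tested as 1 feature beside the bins outside the windows, a test added after the bin values had been seen. It rose by a log2 fold change of 1.32 (SE 0.24, edgeR adjusted p = 0.0149), but without parental 1 or parental 2 the adjusted p was 0.0869 or 0.0930. Within 2 Mb on either side of the window, 21 bins were tested, of which 0 were called higher and 7 lower. The other clusters passed no such test. The first chromosome 11 cluster had 0 and 30.5 CPM in resistant libraries, against 45.5 and 65.7 CPM in parental libraries (log2 fold change -1.87, SE 1.65, edgeR adjusted p = 0.473). The last cluster had 0 and 8.13 CPM, against 10.9 and 29.9 CPM (-2.33, SE 1.97, edgeR adjusted p = 0.454). The second had 174 and 149 CPM, against 140 and 141 CPM (0.20, SE 0.14, edgeR adjusted p = 0.365).

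Within the second chromosome 11 cluster bins moved in opposite directions. The bin at 55.30 to 55.40 Mb listed 646 and 577 ChIP reads in resistant libraries and no island in either parental library (45.6 and 46.9 CPM, against 0; edgeR adjusted p = 0.00251). This call held under all 15 other fits that gave a value for the bin. The bin at 56.00 to 56.10 Mb fell to 7.48 and 13.3 CPM in resistant libraries, against 34.9 and 32.4 CPM in parental libraries (log2 fold change -1.69, SE 0.44, edgeR adjusted p = 0.0435). This call was lost in 7 of the 8 fits that left out a library (edgeR adjusted p 0.0587 to 0.159), the exception being the fit without resistant 2. For the ratio of ChIP to input reads there the log2 fold change was 0.49 (limma adjusted p = 0.230). The bins at 55.60 and 56.30 Mb listed no island in either resistant library, against 93 and 83 reads and 93 and 87 reads in parental libraries (edgeR adjusted p = 0.0417 and 0.0441); both calls were lost without a filter on low bins (0.0623 and 0.0683) and without any single resistant, parental or vector_NT library (0.0752 to 0.226). The first chromosome 11 cluster was highest at 5.90 to 6 Mb, with 0 and 8.94 CPM in resistant libraries, against 27 and 29.9 CPM in parental libraries, and the last cluster at 123.60 to 123.70 Mb, with 0 and 8.13 CPM, against 0 and 6.37 CPM. Neither was called (edgeR adjusted p = 0.345 and 0.977).

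**Figure D2:**
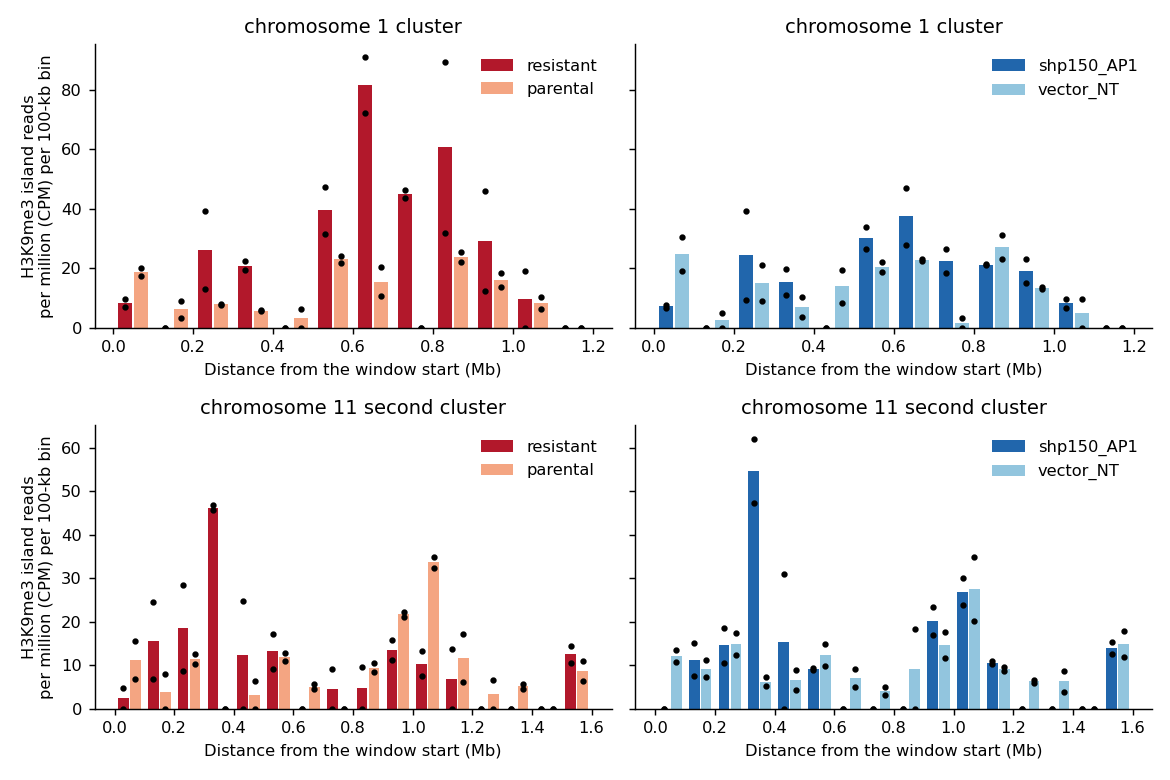
H3K9me3 island ChIP reads as CPM (vertical axis) in 100-kb bins by distance from the window start in Mb, for the chromosome 1 cluster (top) and the second chromosome 11 cluster (bottom); resistant and parental libraries on the left, shp150_AP1 and vector_NT libraries on the right, bars for means and dots for the 2 libraries. In the bin 0.3 Mb into the second chromosome 11 cluster, resistant and shp150_AP1 libraries are at 45.6 to 62.1 CPM, against 0 in parental and 5.16 to 7.30 CPM in vector_NT libraries.

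Counted as regions, 7 of 99 regions of the windows (7.07%) were gained in resistant cells, that is, listed in both resistant and in no parental library, against 3.06% genome-wide, and 14 (14.1%) were lost, against 17.7% genome-wide. All 7 gained regions were in the chromosome 1 cluster, between 248139601 and 248450800. The first by ChIP reads, chr1:248444401-248450800, had 220 and 143 reads in the resistant libraries. The next were chr1:248215601-248221200 (207 and 143 reads) and chr1:248389401-248395200 (95 and 243 reads). No parental library listed any of the 3. The lost regions were 4 in the chromosome 1 cluster and 5, 4 and 1 in the first, second and last chromosome 11 clusters. Those with the most reads were chr11:56026001-56030400 (152 and 134 in parental libraries), chr11:55983001-55989000 (133 and 152) and chr11:6199201-6202800 (136 and 128). Leaving out 1 resistant library gave 17 to 27 gained regions, leaving out parental 1 gave 32 lost regions and leaving out resistant 2 gave 22; a region then needs fewer listings.

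The shp150_AP1 cells were also higher at 55.30 Mb of chromosome 11, while no call was made for the chromosome 1 cluster. The bin at 55.30 to 55.40 Mb held 62.1 and 47.4 CPM in shp150_AP1 libraries, against 7.30 and 5.16 CPM in vector_NT libraries. The groups stood apart, with a log2 fold change of 3.13 (SE 0.34, edgeR adjusted p = 0.0323). By edgeR 0 window bins were called lower (1.51% of all bins). At an unadjusted edgeR p under 0.05, 5 window bins were lower, and DESeq2 called 4 lower (12.4% of all bins). The bin at 55.30 Mb was the 1 window bin called higher by edgeR (2.07% of all bins). The call was lost in 6 of the 8 fits that left out a library, each parental, shp150_AP1 and vector_NT library in turn (adjusted p 0.0577 to 0.198). A test of the resistant change minus the shp150_AP1 change gave an edgeR adjusted p of 0.0195 for this bin, the 1 window bin past the threshold in this direction (0.731% of all bins). The parental side of that test is 0 because no island was listed there, which is not a measured level, so no difference between the 2 changes is read from it. In the other direction 0 window bins were called (4.49% of all bins; 1 at an unadjusted p under 0.05, and 0 with DESeq2). Input reads in the islands of this bin were 347 and 342 in resistant, 0 in parental, 447 and 409 in shp150_AP1, and 67 and 40 in vector_NT libraries.

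The islands of that bin were not at the same places. Of 10 union regions that start between 55.30 and 55.40 Mb, chr11:55340201-55348600 was listed in 1 resistant library (218 reads) and both shp150_AP1 libraries (100 and 125 reads). The region at chr11:55374801-55383000 was listed in the other resistant library (197 reads) and both shp150_AP1 libraries (103 and 256 reads). The region at chr11:55392401-55398600 was the one listed in both vector_NT libraries (233 and 117 reads). None of the 10 regions was listed in both resistant libraries.

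The chromosome 1 cluster held 160 and 210 CPM in shp150_AP1 libraries, against 150 and 161 CPM in vector_NT libraries. The groups overlapped, and the log2 fold change was 0.25 (SE 0.23, edgeR adjusted p = 0.655). The difference between the 2 changes was 1.07 (SE 0.33, unadjusted p = 0.0193, edgeR adjusted p = 0.241), so the resistant and shp150_AP1 changes were not shown to differ. The bin at 248.20 Mb had 27.9 and 47.0 CPM in shp150_AP1 libraries, against 22.5 and 23 CPM in vector_NT libraries (log2 fold change 0.72, SE 0.39, edgeR adjusted p = 0.366). The other clusters had log2 fold changes of 0.03 (SE 1.58), 0.14 (SE 0.14) and -0.50 (SE 1.88), with edgeR adjusted p of 1, 0.712 and 0.968.

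Islands covered 2.67 and 3.45% of the windows in shp150_AP1 libraries, against 4.01 and 3.68% in vector_NT libraries, which did not overlap (exact permutation test, p = 0.333, adjusted p = 0.576). They covered 4.10 and 6.70% of the chromosome 1 cluster in shp150_AP1 libraries, against 6.14 and 6.61% in vector_NT libraries, and 3.88 and 4.59%, against 5.72 and 4.41%, of the second chromosome 11 cluster. Both of these clusters overlapped between the groups. The first chromosome 11 cluster was covered to 1.44 and 1.53% in shp150_AP1 libraries, against 2.44 and 1.96% in vector_NT libraries, and the last to 0.918 and 0.635%, against 1.01 and 1.69%. These clusters were lower in both shp150_AP1 libraries, without overlap (exact permutation test, p = 0.333, adjusted p = 0.576 for each). The rest of the genome was at 8.86 and 10.5% in shp150_AP1 libraries and 13.1 and 12.5% in vector_NT libraries. Listed islands held 11504516 and 14859453 ChIP reads in shp150_AP1 libraries, against 31117459 and 21784204 in vector_NT libraries; the part of depth in the difference was not tested.

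Of 113 regions in this comparison, 3 (2.65%) were gained, against 1.87% genome-wide, and 14 (12.4%) lost, against 13.8%. The gained ones were chr11:55375201-55383000 (103 and 256 reads in shp150_AP1 libraries), chr1:247866001-247872200 (103 and 167) and chr1:248309601-248313200 (108 and 110). Of the lost ones, chr11:6199401-6203200 had the most reads (213 and 232 in vector_NT libraries), followed by chr11:6135001-6140000 (191 and 162) and chr11:56273601-56277200 (210 and 137). The resistant and shp150_AP1 comparisons share no library. Of the 14 regions lost in resistant cells, 4 (28.6%) overlapped a region lost in shp150_AP1 cells, against 31.0% of the lost regions genome-wide, and 4 of the 14 lost in shp150_AP1 cells (28.6%) did in turn, against 37.3%. Of the 7 gained in resistant cells, 1 (14.3%) overlapped one of the 3 gained in shp150_AP1 cells (33.3%), against 14.8% and 23.3% genome-wide. Both vector_NT libraries listed 11 of the 14 regions lost in resistant cells (78.6%, against 79.2% of the lost regions genome-wide), and no vector_NT library listed 6 of the 7 gained ones (85.7%, against 58.7%).

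Open chromatin was sparse in the receptor windows in every library. ATAC-seq peaks, the sites that transposase Tn5 can reach, numbered 42 to 142 a library in the windows. The density was 13.5 ± 5.52 peaks per Mb in the windows and 27.3 ± 10.9 peaks per Mb in the rest of the genome (SD, n = 20). The windows were lower in 20 of 20 libraries (sign-flip permutation test with 100000 resamples, p = 1e-05, the smallest it can give, adjusted p = 2.40e-05), and so was each of the 4 clusters in 20 of 20 libraries, at 11.7 to 15.6 peaks per Mb on average. The 20 libraries come from 2 cell lines, which the p-value does not take into account. Nor does it compare the windows with other stretches of the genome. By cell line, densities were 21.6 to 25.7 peaks per Mb in the windows and 42.7 to 48.8 in the rest in WM983B, and 7.61 to 15 in the windows and 14.1 to 31.2 in the rest in 451Lu. Peak scores, the caller's own values, stood differently in the 2 lines. The median score of a 451Lu library was 7.14 to 18.1 in the windows and 7.65 to 14.4 elsewhere, above the rest in 13 of 16 libraries. That of a WM983B library was 6.04 to 8.61 in the windows and 6.50 to 8.81 elsewhere, below the rest in 4 of 4.

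**Figure D3:**
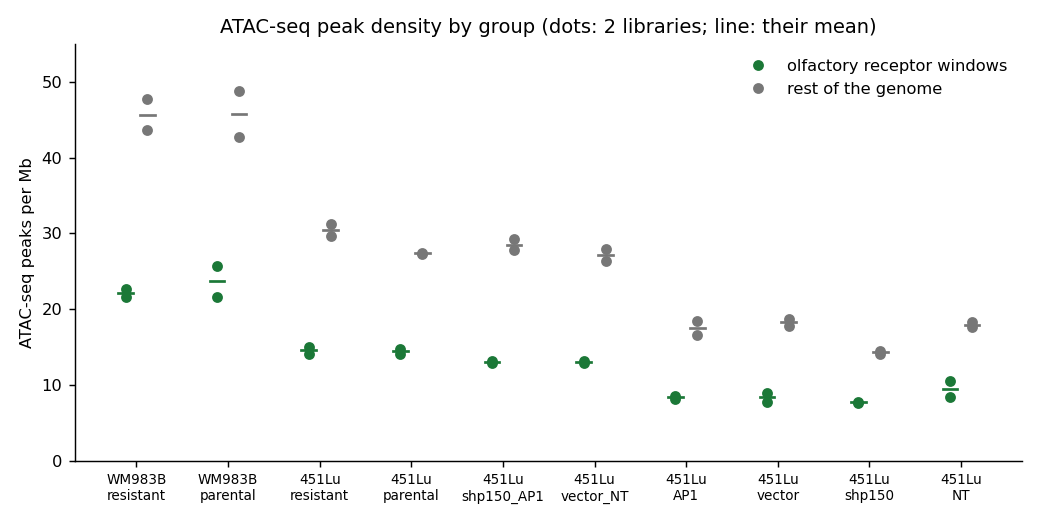
ATAC-seq peaks per Mb (vertical axis) in the receptor windows (green) and in the rest of the genome (grey) for the 10 groups; dots are the 2 libraries of a group and lines their means. In each of the 20 libraries the windows, at 7.61 to 25.7 peaks per Mb, are below the rest of the genome, at 14.1 to 48.8.

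The peaks merged into 204 regions over the 20 libraries. Of these, 18 (8.82%) were listed in all 20, against 11.7% of 208946 regions genome-wide, and 51 (25.0%) in 1 library, against 25.5%. The constant regions were 3 in the chromosome 1 cluster and 7, 5 and 3 in the first, second and last chromosome 11 clusters. By mean score the first 5 were chr11:4628948-4629830 (mean score 52.2), chr11:5705727-5706631 (37.2), chr11:55652489-55653902 (35.5), chr11:55198640-55199485 (34.5) and chr11:6204153-6204951 (34.0). The next 5 were chr1:248126235-248127068 (28.4), chr11:6214992-6215887 (27.4), chr11:124145760-124146689 (26.0), chr11:123611534-123612714 (23.8) and chr11:4414296-4415280 (23.4). Whether the constant regions lie at receptor genes or at other genes was not tested. Of the 18 constant regions, 8 overlapped an H3K27ac peak of at least 1 library (44.4%, against 58.8% of constant regions elsewhere). Of the other 186 regions, 13 did (6.99%, against 8.55%). H3K9me3 islands overlapped 2 of the 18 (11.1%, against 14.6%) and 18 of the 186 (9.68%, against 19.9%). The part of the lower island coverage of the windows in these shares was not tested.

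Some regions were listed in 1 cell line alone. The lists of the lines are not of one kind: the smallest score was 1.30 to 1.32 in WM983B and 2 to 2.04 in 451Lu libraries, and the median width of a window peak 152 to 184 bp in WM983B and 348 to 536 bp in 451Lu libraries. The part of these limits in the listing was not tested. In the windows, 12 regions (5.88%, against 4.70% genome-wide) were listed in all 4 WM983B and no 451Lu library, and 2 (0.980%, against 0.234%) in all 16 451Lu and no WM983B library. The highest of the 12 was chr11:55640298-55640963, with scores of 16.2 and 18.1 in resistant and 16.2 and 10.4 in parental WM983B libraries. It was followed by chr1:247904136-247904314 and chr11:56171874-56172349, with mean scores of 13.5 and 11.9. The 2 regions of 451Lu lie at chr11:56594710-56595299 (mean score 13.1) and chr1:248469056-248469697 (mean score 10.9). Regions listed in some WM983B and no 451Lu library made up 42.6% of the window regions and 37.6% genome-wide, beside 4 libraries of WM983B that listed 129339 to 147988 peaks each.

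By listing, 0 to 4.81% of the ATAC-seq regions of the windows were gained and 0 to 6.67% lost in a comparison. Gained shares were below the genome-wide ones, and lost shares stood on both sides of them. In 451Lu, peak numbers in the windows were 78 and 83 in resistant and 78 and 81 in parental libraries, and 5 of 104 regions (4.81%) were gained, against 9.79% genome-wide, and 5 (4.81%) lost, against 3.96%. The gained regions were chr1:247698733-247699211 (scores 13.3 and 7.31 in resistant libraries), chr11:124069494-124069857 (10.2 and 9.14), chr11:5555355-5555793 (10.1 and 8.60), chr11:56541928-56542481 (5.81 and 11.6) and chr11:5830211-5830445 (3.62 and 5.35). The highest lost region was chr11:6033307-6033693 (11 and 5.59 in parental libraries), then chr1:248406516-248406921 (8.73 and 6.52), and chr11:6146147-6146417, chr11:5640198-5640617 and chr1:247611569-247611985 scored 2.86 to 6.59. No parental library listed the gained regions and no resistant library the lost ones. The medians of these 4 lists outside the windows were 13.1 to 14.4. With each list cut to the length of the shortest, 8 regions were lost.

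In WM983B, 125 and 119 peaks were listed in resistant and 119 and 142 in parental libraries, and 2 of 198 regions (1.01%) were gained, against 1.47%, and 1 (0.505%) lost, against 1.22%. The 2 gained regions, chr11:5852810-5852968 and chr11:6222364-6222483, scored 2.43 to 4.28, and the lost one, chr11:55895833-55896010, 2.49 and 3.75. WM983B libraries with the same replicate number shared more bases than those with the same label. The shared bases over all bases of both lists were 0.609 for resistant 2 and parental 2 and 0.578 for resistant 1 and parental 1, against 0.509 for the 2 resistant and 0.510 for the 2 parental libraries. In 451Lu the values were 0.715 for the 2 resistant and 0.726 for the 2 parental libraries, against 0.625 to 0.635 between them.

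In the engineered 451Lu cells, AP1 libraries listed 45 and 47 peaks in the windows and vector libraries 49 and 43; by this listing rule, which is no replicated test, 0 of 59 regions were gained (1.60% genome-wide) and 0 lost (2.86% genome-wide). The shp150 libraries listed 42 and 43 peaks and the NT libraries 58 and 46; 0 of 60 regions were gained (0.747% genome-wide) and 4 (6.67%) lost, against 7.51%. The lost ones were chr1:248775327-248775566 (scores 9.03 and 4.53 in NT libraries), chr1:248516090-248516353 (7.73 and 3.36), chr1:247909828-247910192 (5.80 and 5.13) and chr11:5571820-5572177 (6.35 and 4.53). With lists of equal length, 0 were lost. The shp150 lists were the shortest, with 43913 and 42898 peaks, against 55609 and 53419 in NT. The shp150_AP1 libraries listed 73 and 71 peaks, as did the vector_NT libraries; 1 of 94 regions (1.06%) was gained, against 5.19%, and 4 (4.26%) lost, against 3.26%. The gained region was chr11:124044818-124045095 (5.80 and 7.63 in shp150_AP1 libraries). The lost ones were chr1:247696964-247697669 (16.8 and 11.1 in vector_NT libraries), chr11:124070331-124070761 (7.37 and 14.7), chr11:6085019-6085293 (10.8 and 9.32) and chr11:5511742-5512106 (3.29 and 4.10).

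The stretch around the chromosome 11 bin called higher in resistant and in shp150_AP1 cells held few listed open sites. Between 55225464 and 55392105 on chromosome 11, 167 kb, none of the 20 libraries listed an ATAC-seq peak, and between 55201009 and 55640422, 439 kb, none of the 4 H3K27ac libraries listed a peak. In the chromosome 1 cluster the longest stretch without an ATAC-seq peak was 113 kb, from 248228660 to 248341923, and it takes in most of the bin that was called higher in resistant cells. ATAC-seq regions of both libraries of a 451Lu group were set against H3K9me3 islands of either library of that group. In the windows, 2 of 68 in resistant (2.94%) and 2 of 70 in parental cells (2.86%) lay on an island. So did 2 of 61 in shp150_AP1 (3.28%) and 2 of 62 in vector_NT cells (3.23%). Outside the windows the shares were 10.4, 8.21, 8.10 and 8.34%, in the same order. Islands themselves covered less of the windows, 2.59 to 4.01% in a library, against 8.82 to 13.1% of the rest. The part of this coverage in the lower shares was not tested, so no avoidance of islands by open sites is read from them.

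H3K27ac, the acetylated lysine of histone H3 found at active promoters and enhancers, was rare in the windows: 14 peaks in resistant and 16 in parental 451Lu cells, and 18 in resistant and 29 in parental WM983B cells, or 2.54 to 5.25 peaks per Mb, against 10.7 to 17.1 peaks per Mb elsewhere. The peaks of 1 library a group were analysed, replicate 1 in 451Lu and replicate 2 in WM983B. Differences between groups therefore have no replicate check and no test. The second chromosome 11 cluster differed most: it held 1 peak in resistant and 6 in parental 451Lu cells, and 4 in resistant and 18 in parental WM983B cells. In 451Lu this ran against the list lengths (51710 peaks in resistant and 32304 in parental cells), while in WM983B it went with them (36022 and 50336). With lists cut to equal length, resistant 451Lu cells kept 1 peak there, against 6 in parental cells, and resistant WM983B cells had 4, against 11 in parental cells. In the chromosome 1 cluster the order was the opposite, with 3 peaks in resistant and 1 in parental 451Lu cells, and 5 in resistant and 2 in parental WM983B cells.

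**Figure D4:**
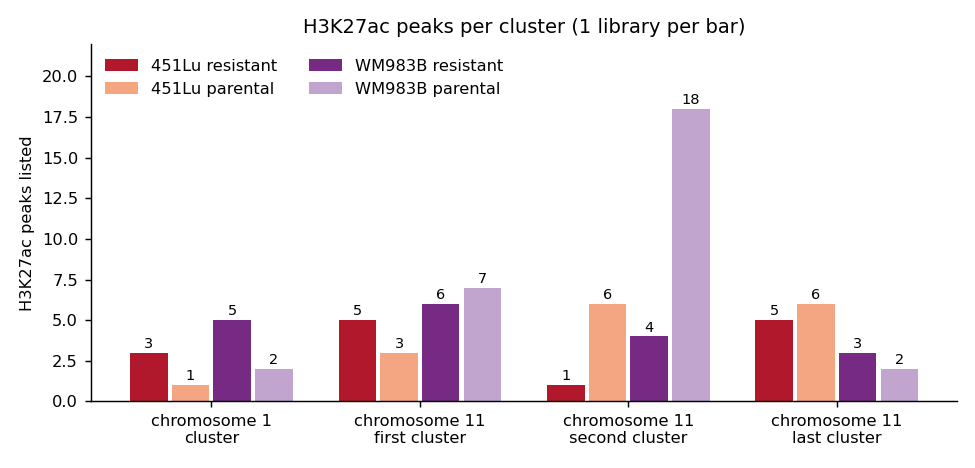
Number of H3K27ac peaks listed (vertical axis) in each receptor cluster for resistant and parental cells of 451Lu and WM983B, 1 library per bar. The second chromosome 11 cluster holds 1 peak in resistant and 6 in parental 451Lu cells, and 4 in resistant and 18 in parental WM983B cells.

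Of 25 H3K27ac regions in the windows of 451Lu, 9 (36.0%) were listed in resistant cells alone, against 50.3% genome-wide, and 11 (44.0%) in parental cells alone, against 19.9%. Of 36 in WM983B, 7 (19.4%) were listed in resistant cells alone, against 21.2%, and 18 (50%) in parental cells alone, against 43.8%. Over both lines, 4 of 49 regions were listed in both parental and in neither resistant library (8.16%, against 3.17% genome-wide), all in the second chromosome 11 cluster. They were chr11:55198353-55198878 (scores 3.54 in 451Lu and 10.6 in WM983B parental cells), chr11:55824788-55825260 (8.37 and 17.8), chr11:55940429-55940934 (10.9 and 21.3) and chr11:56264729-56265095 (9.70 and 14.2). An ATAC-seq peak lay within 1 kb of the first in 20, of the second in 19, of the next in 18 and of the last in 0 of 20 libraries. The reverse pattern was seen at 1 region (2.04%, against 4.83%), chr1:248069519-248070005.

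Peaks shared by all 4 H3K27ac libraries were at chr11:124145477-124146001, chr11:6205034-6205599 and chr11:123611880-123612426. The first had scores of 19.3 in resistant and 71.7 in parental 451Lu cells, and 8.34 in resistant and 41.4 in parental WM983B cells. In the parental 451Lu list it ranked 677 of 32304, the highest rank of a window peak. The second scored 24.6 in resistant and 45.4 in parental 451Lu cells, and 12.9 in resistant and 21.6 in parental WM983B cells. The last one scored 22.9 in resistant and 24.1 in parental 451Lu cells, and 22.2 in resistant and 13.6 in parental WM983B cells. Scores depend on the depth of their own list and are given here as a description of each list. All 3 lie beside or on ATAC-seq regions listed in all 20 libraries. The other leading peaks of a library were at chr11:5706593-5707161 in resistant 451Lu (score 20.5) and, over a slightly shorter stretch, in resistant WM983B (17.9), at chr1:248377760-248378232 in parental WM983B (23.6), and at chr1:247910561-247911012 in resistant WM983B (18.8).

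In the authors' deposited table of 1848 RRR intervals, whose assay, libraries and direction of change are not stated in it, 41.2% of intervals had an adjusted p under 0.05 with a log2 fold change below 0 and 33.2% with one above 0. The 4 intervals that touch the receptor windows went both ways. In the authors' deposited table the interval at chr1:247500001-247760000, at the edge of the chromosome 1 cluster, had a log2 fold change of -2.49 (authors' SE 0.28, adjusted p = 1.18e-17), and chr11:123900001-124020000 one of -2.68 (authors' SE 0.34, adjusted p = 1.35e-14). In the same deposited table of the authors, chr11:56520001-56640000 had 3.04 (authors' SE 1.05, adjusted p = 0.00624) at a low mean of 27.32, and chr11:5620001-5740000 had 0.33 (authors' SE 0.29, adjusted p = 0.286). The first interval overlapped 3 and 2 H3K9me3 islands in resistant libraries, 6 and 6 in parental, 2 and 2 in shp150_AP1, and 8 and 7 in vector_NT libraries. The interval at chr11:123900001-124020000 overlapped 0 and 0 islands in resistant, 1 and 2 in parental, 0 and 0 in shp150_AP1, and 1 and 1 in vector_NT libraries. That at chr11:56520001-56640000 had a log2 fold change above 0. It overlapped 1 and 1 in resistant, 2 and 3 in parental, 1 and 2 in shp150_AP1, and 2 and 3 in vector_NT libraries. The interval at chr11:5620001-5740000 overlapped 0 in all 8 libraries. ATAC-seq peaks on the 4 intervals, in the same order, were 8 and 9, 3 and 5, 6 and 5, and 4 and 4 in resistant 451Lu libraries. In parental 451Lu libraries they were 9 and 9, 5 and 4, 3 and 4, and 5 and 5.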

How the data were processed

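ATAC-seq, H3K27ac ChIP-seq and H3K9me3 ChIP-seq lists of 32 libraries were used; the other 15 of 47 samples were not analysed here. Per the submitters' processing notes, the build was hg19 and the tools, listed with no role or order, included deepTools, STAR 2.5.3, SICER, MACS2, Picard and Bowtie2. The authors deposited, for each peak, a peak score whose kind is not stated, and for each island raw ChIP and input read counts, a p-value, a false discovery rate and the ratio (fold) of ChIP over input. The deposited RRR table of the authors gives a mean signal, log2 fold changes with their errors, a test score and p-values; its columns are named as DESeq2 names them per the file headers, and its intervals were extended by 1 grid step of 20 kb at their ends.

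A feature was counted in a window when it overlapped it by 1 bp. The length of the rest of the genome was taken from the farthest listed features (3035 Mb). Island ChIP read counts were summed by midpoint in 100-kb bins and tested with edgeR 4.0.16 (TMM scaling, filterByExpr, quasi-likelihood fit over 8 libraries, Benjamini-Hochberg adjustment, threshold 0.05) in R 4.3.3, and the fit was tested on simulated data. DESeq2 1.42.0 and limma 3.58.1 were alternatives. Island reads are not whole-library reads: a change of listed islands moves both the sums and the totals they are scaled by. Union regions were called gained when listed in both libraries of the resistant or engineered group and in no library of its control group, and lost for the reverse. Permutation tests were run in Python 3.11.15 with numpy 2.4.6. Total island ChIP reads were 11504516 to 31117459 a library, and the depth of the peak lists is unknown.

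The bins named were up to 5 called in a direction and the highest of each cluster, and the regions those with the most reads or the highest scores, up to 3 or 5 a direction. The members, lists and tests were chosen with earlier results of these data known. Alternatives were other scalings, filters, bin sizes, overlaps and list lengths, a replicate block, and leaving out each library. No 2 H3K9me3 libraries of a group were duplicates: 203 to 822 islands of a group's pair had identical ends, and 1 to 8 of them the same ChIP reads.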

Additional observations from a re-analysis of the deposited data

How the results depend on the processing

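Lower H3K9me3 coverage and lower ATAC-seq density in the windows than in the rest of the genome kept their direction and side of the threshold under the alternatives run for them; without 1 library the H3K9me3 difference was -7.74 to -7.23 percentage points. The difference in window coverage was 0.0507 to 0.547 points for resistant minus parental cells and -1.18 to -0.397 points for shp150_AP1 minus vector_NT cells. Of 449 alternative values for 48 results, 301 kept both their direction and call or size, 42 kept the direction and lost the call, 99 moved and 7 changed sign.

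For resistant against parental cells, the 2 window bins called higher became 7 with DESeq2, 4 with 50-kb bins, 0 for the ratio of ChIP to input reads and 1 to 4 without 1 library. The 3 called lower became 6 with DESeq2, 1 with islands of a false discovery rate under 0.01, 0 for the ratio, 1 without a filter, 0 with the replicate block and 0 to 4 without 1 library. Over all bins, DESeq2 called 14.4% higher and 25.8% lower, and 50-kb bins gave 3.98 and 9.68%. The ratio, run on bins with island reads in all 8 libraries, called 0% either way. Lower calls were 13.5% of all bins with the stricter islands, 12.4% without a filter and 8.77% with the block. The ratio of ChIP to input, taken within listed islands, changed sign for the bins at 248.20 Mb of chromosome 1 (-0.01) and 56.00 Mb of chromosome 11 (0.49). For shp150_AP1 against vector_NT cells, the 1 bin called higher became 0 with 50-kb bins, the ratio and the block, and 0 to 1 without 1 library; bins called lower became 4 with DESeq2, 8 with the 4 libraries alone and 0 to 1 without 1 library. For the difference of the changes, the 1 higher bin became 4 with DESeq2, 0 with the ratio and the block, and 0 to 3 without 1 library, and the lower ones 1 with 50-kb bins and 0 to 2 without 1 library. For shp150_AP1 against vector_NT cells, DESeq2 called 8.75% of all bins higher and 12.4% lower. The cause of the differences between fits was not tested. For sums that were not called, the sign also changed: the shp150_AP1 minus vector_NT value of the first chromosome 11 cluster was -0.04 without TMM, -0.06 without shp150_AP1 1 and -0.11 without vector_NT 2 (-0.11 to 0.17 without 1 library), against 0.03, and the difference of the changes in the second was -0.06 without resistant 1 and -0.09 without vector_NT 1 (-0.09 to 0.20 without 1 library), against 0.06. The chromosome 1 sum ranged from 1.01 to 1.58 without 1 library. Without TMM the median over all bins listed in resistant and parental cells moved to -0.26, against -0.14 with it, and the calls in the windows stayed at 2 higher and 3 lower. Fits in which a group had no island left gave no sum.

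Without 1 library, 7 to 27 H3K9me3 regions were gained and 14 to 32 lost in resistant cells, and 3 to 20 gained and 18 to 37 lost in shp150_AP1 cells. ATAC-seq regions without 1 library were 7 to 12 gained and 7 to 12 lost in resistant 451Lu, 6 to 20 gained and 7 to 24 lost in resistant WM983B, 1 to 4 gained and 2 to 4 lost in AP1, 1 to 2 gained and 4 to 12 lost in shp150, and 3 to 7 gained and 5 to 11 lost in shp150_AP1 cells. With scores of 5 or more, 8 were gained in resistant 451Lu, 0 lost in resistant WM983B, 2 gained in shp150_AP1, and parental WM983B had 16 H3K27ac peaks in the windows. With lists of equal length, 8 were lost in resistant 451Lu, 1 gained in resistant WM983B and 0 lost in shp150. Where 50% of a region had to be covered, resistant WM983B had 6 gained and 2 lost, AP1 1 and 1, shp150 1 and 7, and shp150_AP1 2 gained.

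Same-numbered H3K9me3 libraries of 451Lu did not deviate together (correlations -0.0249 to 0.0224), so the numbers were not taken to pair them. In the WM983B ATAC-seq lists same-numbered libraries were the more alike (0.609 and 0.578, against 0.509 and 0.510 within a label), but the counts of listed regions come from no test that could take a block. With the replicate block the higher bins of resistant cells stayed at 2 and the chromosome 1 sum was 1.30 (edgeR adjusted p = 0.0230). Groups of 2 libraries, and 1 for H3K27ac, limit every comparison, and sites below the authors' thresholds are not listed.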
